A study of Mus musculus with 50 samples.

Results

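The genes described here are 10 of the 21954 genes counted in the series, namely Ptgs1, Ptgs2, Ptges, Ptgds, Hpgd, Ptger2, Ptger4, Alox5, Alox5ap and Alox15. They were chosen by name as enzymes and receptors of the prostaglandin and leukotriene pathways, and their levels were followed in cultured macrophages and in amputated mouse digits. In M1 macrophages the transcripts for the inducible cyclooxygenase Ptgs2 and the prostaglandin E synthase Ptges rose, and those of the constitutive cyclooxygenase Ptgs1 and the prostaglandin-degrading enzyme Hpgd fell. In non-regenerative digits Ptgs2 and Ptges rose at 6, 12 and 24 hours, and no fall of Hpgd was called at any time.

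Prostaglandins and leukotrienes are lipid mediators made from arachidonic acid, which phospholipases release from membranes. The cyclooxygenases, encoded by Ptgs1 and Ptgs2, convert it to prostaglandin H, from which terminal synthases make the separate prostaglandins, Ptges making prostaglandin E and Ptgds prostaglandin D. Hpgd starts the inactivation of prostaglandin E, and Ptger2 and Ptger4 encode its EP2 and EP4 receptors, which raise cyclic AMP. In the other branch, Alox5 makes leukotrienes with the help of the membrane protein encoded by Alox5ap, and Alox15 encodes a lipoxygenase that oxidises arachidonic acid at other positions. In injured skin and bone these mediators are known for their part in inflammation, pain, blood flow and repair, and macrophages are among the cells that make them.

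RNA-seq was done on the wound bed of digits and on bone marrow-derived macrophages (BMDM). Digits were taken from male C57Bl/6 young adult mice after amputation through the terminal phalanx of the third hindlimb digit on both sides, so a mouse can have given more than 1 digit. The 29 non-regenerative digits carry labelled amputation levels from 60% to 80% and cover 9 times, namely 0, 3, 6, 12 and 24 hours and then 3, 7, 14 and 21 days, with 5 digits at 7 days and 3 at every other time. Of these levels 17 exceed 67%, 1 equals it and 11 are lower, and the digits of 12 hours carry 64%, 64% and 67%. The limit that the study sets for non-regenerative digits lies within this range, and digits were kept in the group of their label. The 12 intermediate digits carry levels from 41% to 55% and cover 4 of these times (0 hours, 24 hours, 14 days and 21 days), again with 3 digits each. Regenerative digits were not analysed here. The 9 macrophage libraries came from marrow of female C57BL/6 mice grown in L929-conditioned medium. Of these, 3 were M0, kept in basal medium and labelled as a baseline without a time, 3 were M1, given interferon gamma and lipopolysaccharide for 24 hours, and 3 were M2, given interleukin 4 for 24 hours. The time in culture and the stimulus therefore cannot be told apart in comparisons with M0. No label names separate cultures or gives each digit a mouse of its own, so p-values measure the spread between these samples, which in the macrophages may be technical.

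The expected counts per library summed to between 1468749 and 13011782 in the digits and between 15683424 and 27904773 in the macrophages. Values per library are given as CPM, expected counts scaled to a common library total after TMM, an estimate of relative library size. Levels of different genes are compared only as normalized TPM, the deposited value per transcript length. Fold changes are from edgeR's quasi-likelihood test, with 95% intervals, and the calling threshold was an adjusted p under 0.05 (Benjamini-Hochberg over all genes tested) together with more than a 2-fold change. A count of 0 allows up to 3 counts, which is 0.233 to 1.88 CPM in the digits and 0.092 to 0.256 CPM in the macrophages, and this floor covers counting error only. The digits carry dates of an earlier and a later period, and all digits at 3 and 12 hours are of the earlier one. At 21 days all intermediate digits are of the earlier and all non-regenerative digits of the later period, so that group and period cannot be told apart there. At 14 days, 1 non-regenerative digit (replicate 2) lay farthest from its own group, at a mean distance of 0.341 (1 minus Spearman's correlation) from the other digits of the group, against 0.0423 to 0.301 for the other 40. In 5 cases the labels of 2 digits share a mark, date and side, among them non-regenerative replicate 1 of 0 hours with replicate 3 of 12 hours, and intermediate replicate 1 with non-regenerative replicate 3 at 14 days. Whether a mark names 1 animal is not given in the sources used here. In the macrophages, 7 marker genes (Csf1r, Adgre1, Cd68, Lyz2, Mrc1, Itgam and Fcgr1) summed to 16310 to 18460 CPM in M0, 9789 to 10610 CPM in M1 and 8748 to 9011 CPM in M2, and 6 keratinocyte markers to at most 0.934 CPM.

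The sequence upstream of the 3 genes with the largest changes between M1 and M0 is shown because Ptgs2 and Ptges rose, and Hpgd fell, in both M1 and M2. In GRCm38 coordinates Ptgs2 (ENSMUSG00000032487) lies at chr1:150100031-150108227 on the plus strand, Ptges at chr2:30889471-30929863 on the minus strand and Hpgd at chr8:56294585-56321043 on the plus strand. Promoter sequences were found for 8 of the 10 genes in the RefSeq table for GRCm38.p6. The 250 bases before the RefSeq start are printed 5′ to 3′ on the strand of the gene, and span chr1:150099781-150100030 for Ptgs2, chr2:30903298-30903547 for Ptges, where the RefSeq start lies inside the longer annotated gene, and chr8:56294302-56294551 for Hpgd. Capitals mark matches to the motifs searched for.
Ptgs2: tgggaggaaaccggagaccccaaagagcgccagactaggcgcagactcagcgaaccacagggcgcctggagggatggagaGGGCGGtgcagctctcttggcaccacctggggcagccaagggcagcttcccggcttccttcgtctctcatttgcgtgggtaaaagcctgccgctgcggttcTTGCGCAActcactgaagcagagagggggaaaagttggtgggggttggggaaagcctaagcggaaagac
Ptges: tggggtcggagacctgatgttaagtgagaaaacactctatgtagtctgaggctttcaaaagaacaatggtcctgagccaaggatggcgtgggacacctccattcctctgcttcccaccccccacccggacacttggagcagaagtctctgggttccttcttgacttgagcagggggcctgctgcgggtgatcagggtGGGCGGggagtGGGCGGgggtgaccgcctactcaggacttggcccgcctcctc
Hpgd: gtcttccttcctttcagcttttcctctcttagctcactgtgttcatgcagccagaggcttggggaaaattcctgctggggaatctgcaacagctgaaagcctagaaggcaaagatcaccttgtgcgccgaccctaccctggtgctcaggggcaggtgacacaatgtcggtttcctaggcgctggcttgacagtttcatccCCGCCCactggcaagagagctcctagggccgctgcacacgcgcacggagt
The motifs were chosen after the windows had been seen and were searched on both strands. They were the GC box GGGCGG, found in 32.7% of the 32851 windows of this length, the C/EBP palindrome TTGCGCAA, found in 0.164%, the E-box CACGTG in 6.02%, the cyclic AMP response element core TGACGT in 6.47% and the TATA box TATAAA in 12.4%. The Ptgs2 window holds a GC box 170 bases before the start and the C/EBP palindrome 69 bases before it. The Ptges window holds GC boxes at 53 and 42 bases, and the Hpgd window holds 1 on the opposite strand at 50 bases. The palindrome is thus the rarest of these matches, and a match describes the letters and not a bound site.

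In M1 macrophages 6 of the 8 tested genes were called against M0. These were 3 higher (Ptgs2, Ptges and Ptger2), where 20.1% of all 12939 tested genes were called higher, and 3 lower (Ptgs1, Hpgd and Alox5), where 26% were called lower. In M2 macrophages 4 of 8 were called, with 2 higher (Ptgs2 and Ptges) against 11% of all genes and 2 lower (Hpgd and Alox5ap) against 11.3%. Between M1 and M2, 7 of 8 were called, with 4 higher in M1 (Ptgs2, Ptges, Ptger2 and Alox5ap) against 20.1% of all genes and 3 lower (Ptgs1, Hpgd and Alox5) against 27.9%. Both comparisons with M0 use the same 3 M0 libraries. Ptgds and Alox15 were below the filter on low counts. In every one of these comparisons all 8 tested genes had an unadjusted p under 0.05, and the uncalled ones were under the fold threshold, Ptger2 in M2 also missing the adjusted p.

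Among the cyclooxygenases, Ptgs2 was at 4.999, 4.09 and 5.44 CPM in the 3 M0 libraries, at 3873, 3803 and 3673 CPM in M1 and at 58.8, 48.3 and 45.2 CPM in M2. The 3 states did not overlap, and the rise against M0 was 829-fold in M1 (log2 fold change 9.70, interval 9.50 to 9.89, adjusted p = 4.05e-15, edgeR) and 10.4-fold in M2 (3.38, interval 3.11 to 3.65, adjusted p = 1.62e-09, edgeR). Ptgs1 went the other way in M1, with 136, 125 and 141 CPM in M0, 3.61, 2.65 and 3.86 CPM in M1 and 185, 199 and 195 CPM in M2. It fell 36.1-fold in M1 (log2 fold change -5.17, interval -5.36 to -4.98, adjusted p = 8.73e-14, edgeR). In M2 all 3 libraries were above those of M0, by 0.52 on the log2 scale (interval 0.40 to 0.64), which is under the 2-fold threshold. Ptgs1 (chr2:36230426-36252272) shares 148 exonic bases with an annotated gene on the other strand, and since the strand of the libraries is not stated, reads of the 2 cannot be told apart there. Of the normalized TPM of both cyclooxygenases, Ptgs2 made up 1.595% to 1.97% in M0, 11.2% to 14.7% in M2 and 99.8% to 99.9% in M1.

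Of the terminal synthases, Ptges was at 2.88, 2.98 and 2.67 CPM in M0, at 250.2, 278 and 279 CPM in M1 and at 9.52, 9.30 and 9.98 CPM in M2. All 3 states were again apart, with a rise of 100.6-fold in M1 (log2 fold change 6.65, interval 6.48 to 6.82, adjusted p = 1.07e-14, edgeR) and of 3.36-fold in M2 (1.75, interval 1.52 to 1.97, adjusted p = 5.25e-08, edgeR). Ptgds (chr2:25466709-25470046) had at most 2 counts in any macrophage library, with 0, 2 and 1 counts in M0, 0 in each of the M1 libraries and 0, 0 and 1 in M2, all below the floor of 3 counts.

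Hpgd, which removes what Ptges helps to make, was at 93.1, 63.3 and 88.5 CPM in M0, at 0.162, 0.342 and 0.241 CPM in M1 and at 2.38, 3.55 and 2.37 CPM in M2. The M1 values rest on 3 to 5 counts a library, and so does the fitted fold of 319 (log2 fold change -8.32, interval -8.90 to -7.74, adjusted p = 1.94e-11, edgeR). In M2 the gene fell 29.6-fold (log2 fold change -4.89, interval -5.30 to -4.48, adjusted p = 2.03e-09, edgeR). The ratio of Ptges to Hpgd in normalized TPM was 0.0131 to 0.0246 in M0, 1.51 to 2.15 in M2 and 499 to 895 in M1, where the denominator is near its floor. Ptges and Hpgd thus stood in opposite order in M0 and in the stimulated states.

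Of the receptors, Ptger2 was at 4.91, 3.75 and 4.78 CPM in M0, at 13.2, 13.2 and 18.1 CPM in M1 and at 4.90, 5.92 and 6.17 CPM in M2. It rose 3.55-fold in M1 (log2 fold change 1.83, interval 1.51 to 2.14, adjusted p = 1.18e-07, edgeR), where its libraries lay above all others, and the M2 difference of 0.33 on the log2 scale (interval 0.02 to 0.64) had an adjusted p of 0.0521. Ptger4 was lower in every stimulated library, with 20.5, 20.4 and 22.8 CPM in M0, 13.7, 14.9 and 14.8 CPM in M1 and 16.9, 16.6 and 15.5 CPM in M2. The differences from M0, -0.46 in M1 (interval -0.63 to -0.30) and -0.38 in M2 on the log2 scale, were under the fold threshold. Both receptor genes (Ptger2 at chr14:44988195-45003820, Ptger4 at chr15:5206661-5244187) share exonic bases with genes on the other strand, and 1015 of those of Ptger4 are shared with a processed pseudogene.

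In the leukotriene branch, Alox5 was low throughout, with 45, 37 and 51 counts in M0, 4, 1 and 3 in M1 and 24, 22 and 30 in M2. The M1 libraries lay below the others (log2 fold change -3.18, interval -4.02 to -2.34, adjusted p = 7.03e-06, edgeR), again a fold that rests on few counts in M1. Its partner Alox5ap was abundant, at 109, 100.4 and 110.4 CPM in M0, 79.0, 71.7 and 87.5 CPM in M1 and 23.7, 22.0 and 22.3 CPM in M2. It fell 4.72-fold in M2 (log2 fold change -2.24, interval -2.36 to -2.12, adjusted p = 1.39e-10, edgeR) and differed by -0.33 in M1 (interval -0.47 to -0.19), under the fold threshold. Alox15, which interleukin 4 is known to induce in human monocytes, had 2, 2 and 1 counts in M0, 0 in each of the M1 libraries and 5, 6 and 4 in M2, too few for the filter, and in M2 only just above the floor of 3 counts.

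**Figure D1:**
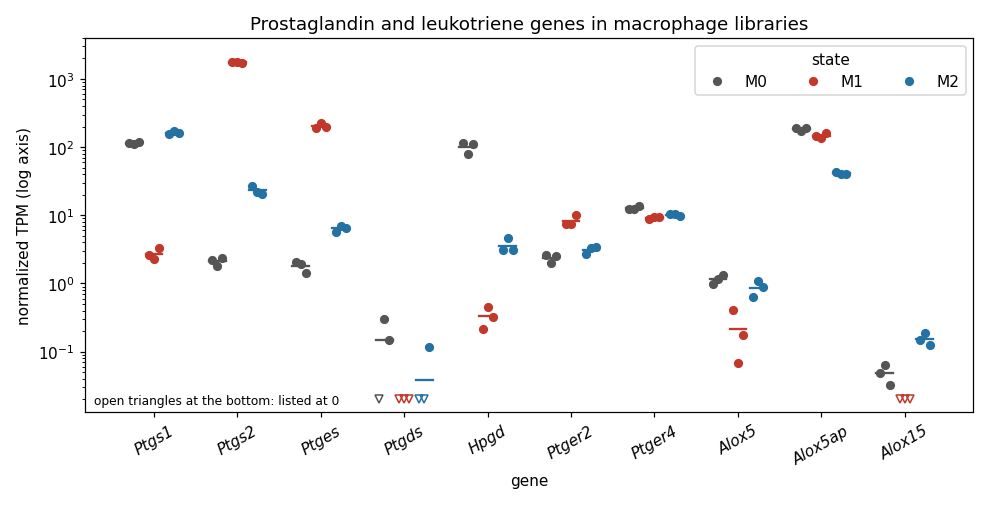
Normalized TPM of the 10 genes in each of the 9 macrophage libraries, on a log axis, with a line at the mean of each state and open triangles for libraries listed at 0. Ptgs2 had a mean of 1748 in M1 against 2.117 in M0, and Hpgd a mean of 0.328 in M1 against 101 in M0.

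Ordered by mean normalized TPM, the leading gene was Alox5ap in M0 (187), ahead of Ptgs1 (114) and Hpgd (101), whose libraries overlapped. In M1 the order was Ptgs2 (1748), Ptges (204) and Alox5ap (147), and in M2 it was Ptgs1 (163), Alox5ap (41.0) and Ptgs2 (23.1). A different gene thus led in each state. Ptger4 followed at 12.7 in M0, 9.21 in M1 and 10.2 in M2, and overlapped Ptger2 in M1. In M0, the libraries of Ptger2, Ptgs2 and Ptges overlapped between 2.38 and 1.80, and in M2 those of Hpgd and Ptger2 did. The normalized TPM summed to 1331226 to 1355441 in M1 libraries and to 786283 to 820932 in M0, so levels on this scale were read within a state.

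In the digits, the order of the median normalized TPM over all 41 libraries was Hpgd (80.9), Ptgs1 (49.9), Ptges (20.4), Ptgs2 (15.95), Alox5ap (10.5), Alox5 (4.34), Ptger4 (1.46) and Ptger2 (0.0768), with Ptgds and Alox15 at 0 in 28 and 29 of the 41 libraries. The order was not the same at each time. In non-regenerative digits of 0 hours the mean normalized TPM was 80.1 for Hpgd, 55.3 for Ptgs1, 11.8 for Ptges and 5.03 for Ptgs2. At 12 hours it was 141 for Ptges, 136 for Ptgs2, 84.5 for Hpgd and 73.8 for Ptgs1. Digits of Hpgd and Ptgs1, and those of Ptges and Ptgs2, overlapped at 0 hours, and all neighbours did at 12 hours. In such bulk samples, fewer cells of a type and less RNA per cell cannot be told apart. Against 0 hours in the non-regenerative digits, 2 of 7 tested genes were called at 6 hours, both higher, where 3.23% of all genes were called higher. At 12 hours 2 of 8 were called, both higher, against 6.76%, and at 24 hours 2 of 7, both higher, against 5.57%. Each time these were Ptgs2 and Ptges. None of the 10 was called at 3 hours (0% of all genes, with 1362 at an unadjusted p under 0.05 and 196 called by DESeq2), 3 days (0.723%), 7 days (0.0537%), 14 days (0% of all genes, with 1044 at an unadjusted p under 0.05 and 354 called by DESeq2) or 21 days (0.452%). At these 5 times 1, 2, 0, 1 and 0 of the genes had an unadjusted p under 0.05. Over all 29 non-regenerative digits, a test of any change with time called 3 of 8 genes, Ptges (adjusted p = 2.94e-06), Ptgs2 (0.000837) and Ptgs1 (0.0296, edgeR), against 7.62% of all genes. The 8 comparisons share the 0-hour digits.

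Ptgs2 in the non-regenerative digits was at 28.9, 6.27 and 3.03 CPM at 0 hours, 42.2, 58.0 and 226 CPM at 3 hours and 358, 143 and 116 CPM at 6 hours. It was at 254, 291 and 527 CPM at 12 hours and at 250.5, 181 and 432 CPM at 24 hours. From 3 to 24 hours every digit was above every digit of 0 hours. At 3 days the values were 74.3, 15.3 and 66.6 CPM, at 7 days they ran from 6.14 to 27.3 CPM with a median of 13.7, at 14 days they were 24.3, 0.186 and 63.2 CPM and at 21 days 22.4, 6.28 and 39.97 CPM, all 4 groups overlapping 0 hours. The value of 0.186 CPM is a single count in the digit that lay farthest from its own group. The rise was 16.6-fold at 6 hours (log2 fold change 4.05, interval 2.08 to 6.02, adjusted p = 0.034), 29.4-fold at 12 hours (4.88, interval 3.05 to 6.70, adjusted p = 0.00655) and 23.5-fold at 24 hours (4.55, interval 2.76 to 6.35, adjusted p = 0.00764, all edgeR). At 3 hours the difference was 3.11 (interval 1.04 to 5.18, adjusted p = 0.331), and at 3 days 2.04 (interval 0.13 to 3.95, adjusted p = 0.414). The call at 6 hours was lost without either of 2 digits of 0 hours (replicates 2 and 3) or any digit of 6 hours, with adjusted p between 0.0543 and 0.1116. At 0 hours the digit of the earlier period held the highest value, 28.9 CPM, and with the period as a term over all digits the log2 differences were 3.92, 4.41 and 4.44 at 6, 12 and 24 hours (adjusted p = 0.0458, 0.0181 and 0.0125, edgeR).

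Ptges followed a similar course with less spread between digits. It was at 31.5, 17.6 and 23.1 CPM at 0 hours and at 23.5, 42.4 and 59.0 CPM at 3 hours, which overlap. It was at 184, 171 and 129 CPM at 6 hours, 258, 158 and 174 CPM at 12 hours and 118, 121 and 160.3 CPM at 24 hours, with every digit above those of 0 and 3 hours. The rise was 6.72-fold at 6 hours (log2 fold change 2.75, interval 2.15 to 3.35, adjusted p = 0.00255), 8.31-fold at 12 hours (3.05, interval 2.42 to 3.69, adjusted p = 0.000699) and 5.58-fold at 24 hours (2.48, interval 1.92 to 3.04, adjusted p = 8e-04, all edgeR). At 3 days the digits were at 43.4, 53.2 and 87.1 CPM, above those of 0 hours without overlap but not called (1.34, interval 0.60 to 2.07, adjusted p = 0.132). At 7 days they ran from 12.4 to 43.0 CPM, at 14 days they were at 35.0, 77.3 and 81.5 CPM (1.44, interval 0.21 to 2.67, adjusted p = 0.586) and at 21 days at 21.4, 17.9 and 23.9 CPM. With the period as a term the differences at 6, 12 and 24 hours were 2.65, 2.85 and 2.38 (adjusted p = 0.00262, 0.000711 and 0.00166, edgeR).

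Genes listed as neutrophil markers were also higher at these times. The list is not particular to neutrophils. In the macrophages it summed to 162.8 to 177.6 CPM in M0, 195.9 to 218.1 CPM in M1 and 197.7 to 213.7 CPM in M2. The 8 neutrophil markers summed to 27.2 to 35.7 CPM at 0 hours, 107.7 to 170.1 CPM at 6 hours, 213 to 557.2 CPM at 12 hours and 353.5 to 629.3 CPM at 24 hours. At 6, 12 and 24 hours 5, 7 and 6 of these markers were tested, and 4, 7 and 4 were called higher. Of all genes tested, 3.23%, 6.76% and 5.57% were called higher at these times. Ly6g had no count in the 3 digits of 12 hours. The sum was still 239.9 to 371.5 CPM at 3 days and 62.1 to 309.7 CPM at 7 days, when Ptgs2 overlapped 0 hours. The 7 macrophage markers summed to 127.9 to 196.8 CPM at 0 hours, 70.5 to 151.1 CPM at 6 hours, 213.6 to 309.3 CPM at 12 hours and 81 to 283.9 CPM at 24 hours, and 2 of them were called higher at 12 hours. Of 5 platelet markers 4 were tested at each of these times, and 1, 2 and 3 were called lower at 6, 12 and 24 hours. Of 6 fibroblast markers, all tested, 0, 1 and 3 were called lower. Over all genes 213 of 13168 were called lower at 6 hours, 4.64% at 12 hours and 5.14% at 24 hours. The 6 keratinocyte markers were at 34250 to 76940 CPM at 0 hours and 31890 to 66500 CPM at 6 hours. They were at 30350 to 39170 CPM at 12 hours and 34030 to 63400 CPM at 24 hours. All 6 were tested, and 1 was called lower at 12 hours and 1 higher at 24 hours. The part of these cells in the rise of Ptgs2 and Ptges was not tested.

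**Figure D2:**
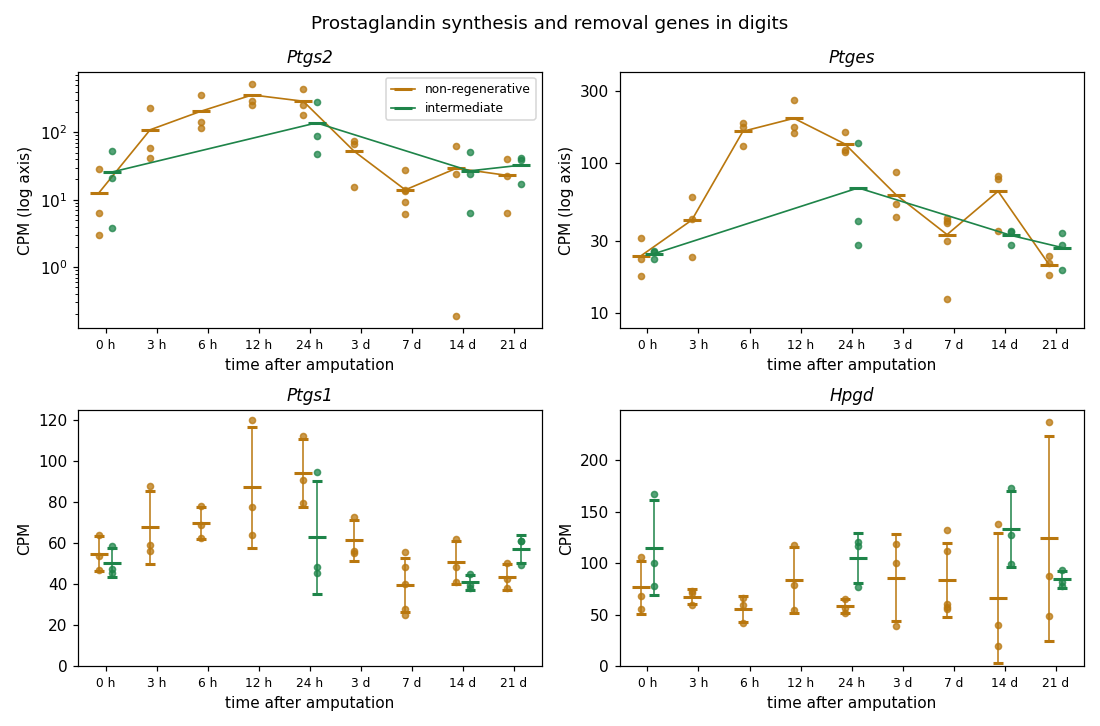
CPM of Ptgs2, Ptges, Ptgs1 and Hpgd in every digit by time after amputation, with a bar at the mean, on a log axis with lines joining the means for Ptgs2 and Ptges and on a linear axis with the SD for Ptgs1 and Hpgd. Mean Ptgs2 in non-regenerative digits was 12.7 CPM at 0 hours and 357 CPM at 12 hours.

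Ptgs1 changed less. It was at 63.7, 53.8 and 46.7 CPM at 0 hours, 119.8, 63.8 and 77.3 CPM at 12 hours and 90.4, 79.5 and 112 CPM at 24 hours, and its lowest value, 25.02 CPM, was at 7 days, where the digits ran up to 55.7 CPM. The digits of 24 hours lay above those of 0 hours by 0.79 on the log2 scale (interval 0.36 to 1.22, adjusted p = 0.0256, edgeR), under the 2-fold threshold. Its call over the whole course was lost with RLE size factors, without the filter on low counts and in 9 of the 29 fits that left out 1 digit (replicate 1 of 6 hours, replicates 1 and 3 of 12, of 24 hours and of 21 days, and replicates 3 and 5 of 7 days). As a share of the normalized TPM of both cyclooxygenases, Ptgs2 had a median of 4.99% at 0 hours (2.24% to 14.2%), 24.6% at 3 hours (24.2% to 56.3%), 47.2% at 6 hours (42.3% to 66.7%), 65.9% at 12 hours (48.6% to 75.6%) and 50.6% at 24 hours (49.9% to 61.6%). The share from 3 to 24 hours was above that of 0 hours in every digit, and below that of any M1 library. It was 25.8% at 3 days (12.2% to 37.0%), and the medians of 7, 14 and 21 days lay between 16.6% and 18.3%.

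**Figure D3:**
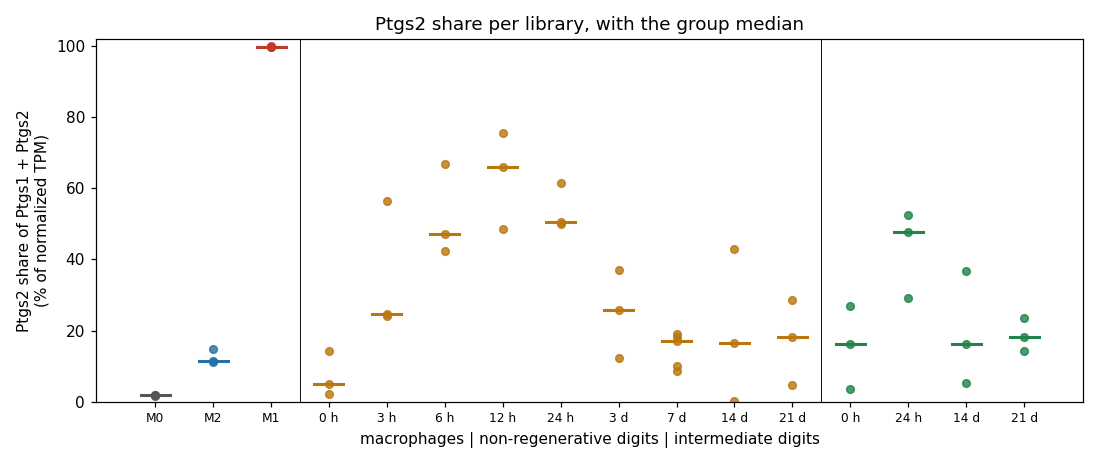
Ptgs2 as a percentage of the normalized TPM of Ptgs1 and Ptgs2 together, 1 point per library with a bar at the median of each macrophage state and digit group. The M1 libraries sit between 99.8% and 99.9%, and the non-regenerative digits of 12 hours between 48.6% and 75.6%.

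Hpgd, which had fallen in both stimulated macrophage states, showed no called change in the digits. It was at 106, 55.9 and 68.2 CPM at 0 hours, and at 65.2, 51.8 and 56.9 CPM at 24 hours. The differences were -0.46 at 6 hours (interval -1.10 to 0.18), 0.15 at 12 hours (interval -0.58 to 0.87) and -0.39 at 24 hours (interval -0.94 to 0.16) on the log2 scale, and the adjusted p over the whole course was 0.836. The spread between digits was wide late in the course, with 138, 20.1 and 40.3 CPM at 14 days and 87.3, 237 and 48.6 CPM at 21 days. The ratio of Ptges to Hpgd in normalized TPM was 0.144 to 0.155 at 0 hours, 1.003 to 2.43 at 6 hours, 1.43 to 1.82 at 12 hours and 1.16 to 1.75 at 24 hours, all without overlap with 0 hours. It was also above 0 hours in every digit of 3 hours (0.178 to 1.79), 3 days (0.198 to 0.625) and 14 days (0.190 to 3.30), the highest of any digit being replicate 2 of 14 days. At 7 days (0.0508 to 0.333) and 21 days (0.0478 to 0.224) it overlapped 0 hours. These ratios also carry shifts between the normalized TPM and the CPM of Ptges. Normalized TPM per CPM of Ptges was 0.461 to 0.522 at 0 hours and 0.447 to 0.588 at 6 hours. It was above 0 hours in every digit of 12 hours (0.644 to 0.789) and 24 hours (0.62 to 0.642). The highest values were 1.73 in replicate 3 of 3 hours and 1.42 in replicate 2 of 14 days. Those 2 digits held the highest Ptges to Hpgd ratios of their times.

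The receptors were near the limit of detection. Ptger2 had 131 counts in all over the 41 digits, none in 17 of them and at most 13 in any. Counts were 0, 4 and 0 at 0 hours, 10, 13 and 9 at 12 hours and 1, 2 and 12 at 24 hours, and all digits of 3 hours and 7 days were at 0. Ptger2 was tested at 12 hours, where the digits lay above those of 0 hours (log2 fold change 3.45, interval 1.06 to 5.84), with an unadjusted p of 0.01 and an adjusted p of 0.0529. It was therefore not called by edgeR, though DESeq2 and limma called it. Ptger4 had a median of 2.82 CPM over the digits, a highest value of 10.7 CPM and 1 digit at 0, and its adjusted p over the non-regenerative course was 0.998.

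Of the leukotriene genes, Alox5 ran from 0.767 to 13.7 CPM over the 41 digits with a median of 5.09, and Alox5ap from 0 to 18.1 CPM with a median of 4.44. Neither was called at any time, with adjusted p of 0.733 and 0.863 over the non-regenerative course. Alox5ap was at 18.0, 3.33 and 4.44 CPM at 0 hours, 5.94, 4.42 and 13.8 CPM at 24 hours and 10.7, 3.18 and 18.1 CPM at 3 days, and the intervals were wide (-1.65 to 1.51 at 24 hours, -1.43 to 2.07 at 3 days). A 2-fold change either way was thus inside the interval at both times. Alox15 had 44 counts in all, the most being 9, 3 and 0 in the digits of 3 hours, and Ptgds had 21, at most 3 in any digit.

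**Figure D4:**
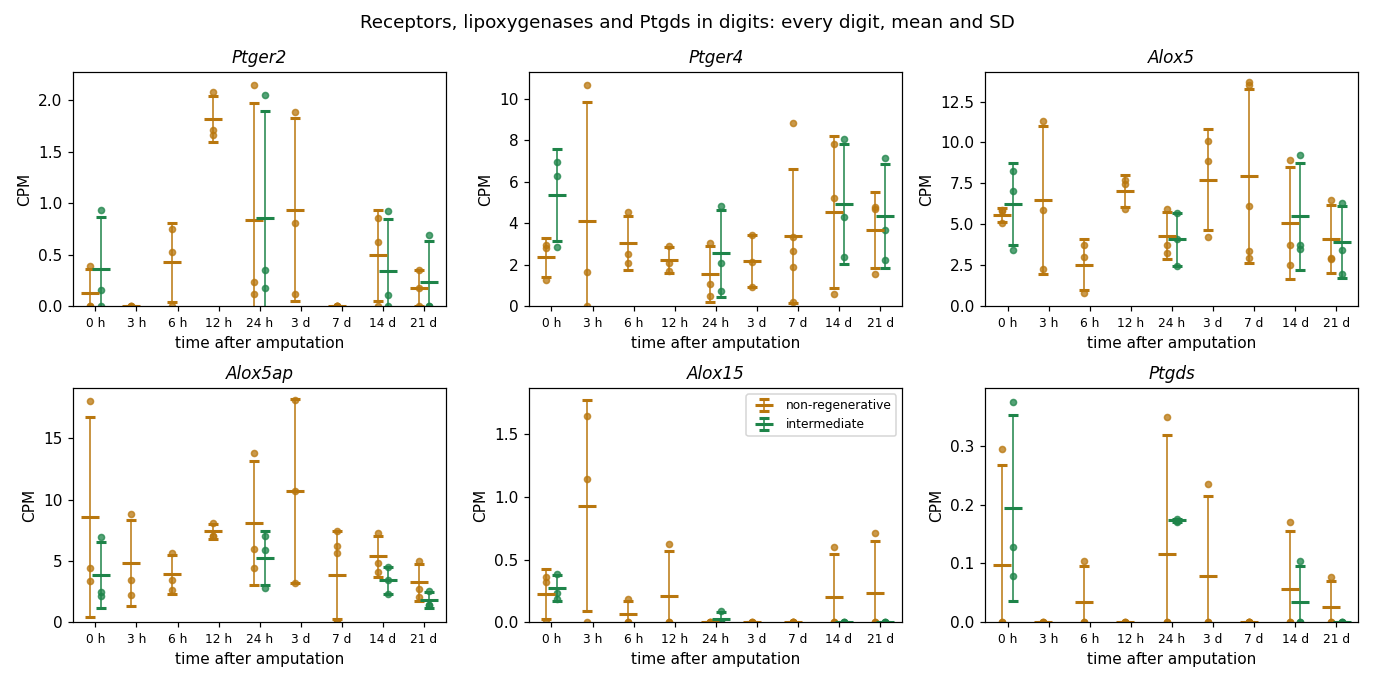
CPM of Ptger2, Ptger4, Alox5, Alox5ap, Alox15 and Ptgds in every digit by time after amputation, with the mean and SD of each group on linear axes. Ptger2 does not exceed 2.15 CPM and Ptgds does not exceed 0.375 CPM in any digit.

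In the intermediate digits none of the 10 genes was called at 24 hours (0.0152% of all genes called), 14 days (1.68%) or 21 days (1.39%), or over the 4 time points together (6.21% of all genes). At 24 hours 2 of the 7 tested genes had an unadjusted p under 0.05, and at 14 and 21 days 0. Those at 24 hours were Ptgs2 and Ptges. Ptgs2 was at 3.85, 52.5 and 21.003 CPM at 0 hours and at 278, 46.9 and 88.4 CPM at 24 hours, which overlap (log2 fold change 2.43, interval 0.37 to 4.497, adjusted p = 0.27, edgeR). Ptges was at 25.7, 22.9 and 26.1 CPM at 0 hours and at 135, 28.3 and 41.0 CPM at 24 hours, which do not (1.46, interval 0.28 to 2.63, adjusted p = 0.252, edgeR). Replicate 1 held the highest value of both, and it also held the highest sum of neutrophil markers, 519.2 CPM against 97.6 and 173.5 CPM. The part of this in the values was not tested. At 14 and 21 days Ptgs2 ran from 6.35 to 50.1 CPM and Ptges from 19.4 to 35.5 CPM.

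**Figure D5:**
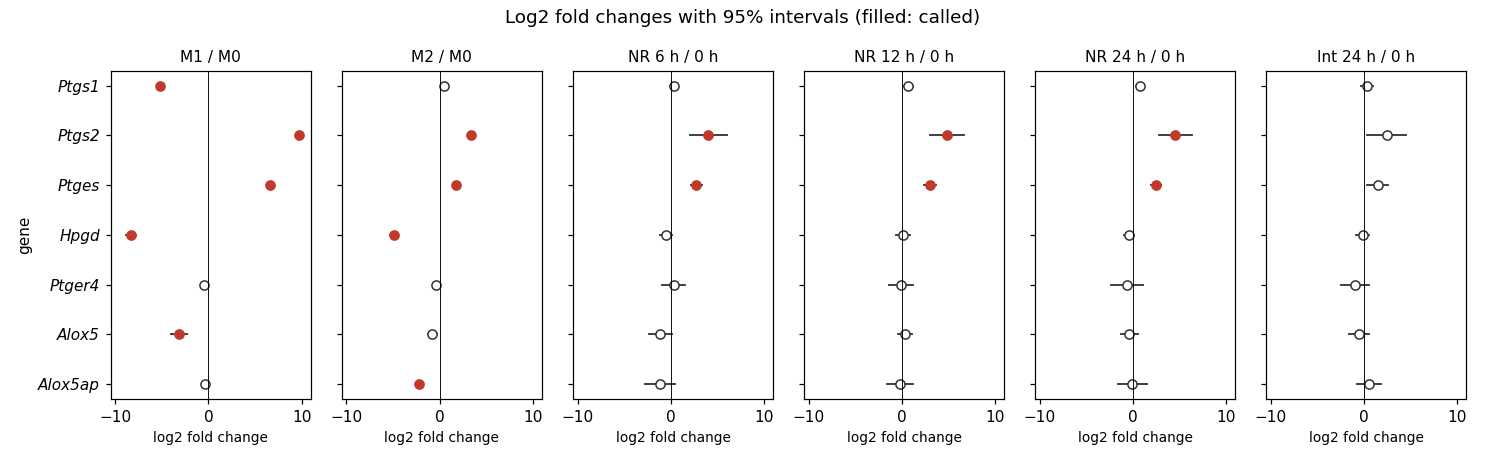
Log2 fold changes of 7 of the genes with 95% intervals in 2 macrophage and 4 digit comparisons, filled where called. In the digits only Ptgs2 and Ptges are filled, in the 3 non-regenerative comparisons shown, and in M2 Hpgd lies at -4.89.

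Set directly against the non-regenerative digits, the intermediate digits differed in none of the 10 genes by edgeR at 0 hours (0% of all genes, with 491 at an unadjusted p under 0.05 and 17 called by DESeq2), 24 hours (0%, with 1472 and 155), 14 days (0%, with 270 and 0) or 21 days (0.648%, where the period differs between the groups throughout). Of the 7 tested genes, 1, 1, 0 and 0 had an unadjusted p under 0.05, namely Ptger4 at 0 hours (adjusted p = 0.993, edgeR) and Hpgd at 24 hours. Hpgd at 24 hours was at 76.9, 117 and 121 CPM in intermediate and 65.2, 51.8 and 56.9 CPM in non-regenerative digits, without overlap (log2 difference 0.88, interval 0.38 to 1.38, adjusted p = 0.296, edgeR). For Ptgs2 the difference at 24 hours was -1.06 (interval -2.41 to 0.30, adjusted p = 0.518) and for Ptges -0.96 (interval -2.10 to 0.18, adjusted p = 0.496). Without intermediate replicate 1, the one with the lowest level of 41% and alone in the earlier period, all 3 of these genes were called, among 653 genes. With replicate 1 kept, 13024 genes were tested. Without it the intermediate digits are all of the later period, while non-regenerative replicates 1 and 3 of 24 hours are of the earlier one. Group and period are then largely mixed, and the part of the period was not tested. A test of whether the courses of the 2 groups differed called none of the 10 (0% of all 14768 genes, with 1048 at an unadjusted p under 0.05 and 3 called by DESeq2), and the adjusted p was 0.66 for Ptges and 0.909 for Ptgs2.

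Of 32 other genes of these pathways, 22 were tested between M1 and M0, of which 7 were called higher and 7 lower (20.1% and 26% of all genes), with a median log2 fold change of -0.19 beside -0.09 over all genes tested. The largest rises were in the leukotriene receptor Cysltr2 (4.52, adjusted p = 1.81e-12), the phospholipase Pla2g4a (4.11, adjusted p = 3.95e-14), which releases arachidonic acid, and the prostacyclin receptor Ptgir (3.33, adjusted p = 1.17e-11). The largest falls were in the leukotriene C4 synthase Ltc4s (-5.29, adjusted p = 5.17e-10), the EP3 receptor Ptger3 (-3.28, adjusted p = 1.27e-06) and the prostaglandin D synthase Hpgds (-1.52, adjusted p = 5.84e-11). Hpgds was at 346 CPM or more in every M0 library while Ptgds was below the floor in each of them.

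In M2, 24 of the 32 were tested against M0, 5 called higher and 4 lower (11% and 11.3% of all genes), with a median of 0.31 beside -0.0035 over all genes. Ptgir (2.66, adjusted p = 1.68e-09), Pla2g4a (2.61, adjusted p = 2.16e-10) and the prostacyclin synthase Ptgis (1.94, adjusted p = 0.000153) led the rises, and Hpgds (-2.62, adjusted p = 1.25e-10), Ptger3 (-2.52, adjusted p = 3.99e-05) and Mgst2 (-1.91, adjusted p = 0.000776) the falls. Pla2g4a was at 14.7 ± 1.23 CPM in M0, 240.4 ± 7.17 CPM in M1 and 90.6 ± 5.75 CPM in M2 (SD, n = 3 each). Between M1 and M2, 23 were tested, 5 called higher in M1 and 6 lower (20.1% and 27.9% of all genes). Cysltr2 (3.56), Alox12 (1.90) and Ptgr1 (1.65) were highest and Ltc4s (-4.82), the prostaglandin F receptor Ptgfr (-3.99) and Ptgis (-3.15) lowest.

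In the non-regenerative digits none of the 32 was called at 3 or 6 hours or from 3 days on. At 12 hours 2 of 26 tested were called, Ptgis higher (log2 fold change 1.60, adjusted p = 0.0199) and Mgst2 lower (-1.54, adjusted p = 0.0108), where 4.64% of all genes were called lower. Ptgis went from 4.01 ± 1.32 to 11.9 ± 1.59 CPM (SD, n = 3 each). At 24 hours 3 of 28 were called, all lower, where 5.14% of all genes were called lower. They were the leukotriene receptor Cysltr1 (-4.37, adjusted p = 0.0189), which was at 0.119 CPM or less in every digit of 24 hours and at 1.41 CPM or more at 0 hours, and the lipoxygenases Alox12e (-2.76, adjusted p = 0.00776) and Alox12 (-1.10, adjusted p = 0.0269). The Cysltr1 values of 24 hours lie below the floor (0.349 to 0.539 CPM in these digits), so the size of its fall is uncertain. Over time, 2 of 29 changed in non-regenerative digits, the prostaglandin reductase Ptgr1 (adjusted p = 0.000615) and the lipoxygenase Alox8 (0.0326), against 7.62% of all genes. In intermediate digits 3 of 27 did, the prostaglandin transporter Slco2a1 (0.0194), Ptgr1 (0.0339) and the leukotriene B4 receptor Ltb4r1 (0.0427), against 6.21% of all genes. None of the 32 was called between the intermediate and non-regenerative digits.

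The genes whose mean log2 CPM over the 13 digit groups was most like that of Ptgs2, among 13691 genes, were Serpinb2 (Pearson's r = 0.976), Nrg1 (0.970) and Epgn (0.967). For Ptges they were Ywhag (0.977), Nhp2l1 (0.976) and Tubb6 (0.975), and for Ptgs1 they were Rbm19 (0.942), Sprr1b (0.934) and Obfc1 (0.931). For Hpgd the nearest were App (0.863), Npr3 (0.852) and Rufy2 (0.836), and for Alox5ap Fbxw9, Dock2 and Stac2, all between 0.889 and 0.892. Those of Ptger4 were 0610009L18Rik (0.908), Btc (0.890) and Celf3 (0.869), and those of Alox5 were Lyrm7 (0.768), Gm28053 (0.758) and Palm2 (0.746). These values describe the 13 group means, which share libraries and depth, and carry no test. Ptgs2 and Ptges had closer companions than Hpgd and Alox5. Ptger2, Ptgds and Alox15 had a mean normalized TPM under 1, and the likeness to their nearest genes, Ccdc88b (0.926), Sfrp4 (0.791) and Hspa1b (0.820), rests on few counts.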

How the data were processed

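Polyadenylated RNA of each sample was sequenced as single-end reads. The authors mapped reads with Bowtie to Ensembl transcripts of GRCm38 (mm10), estimated expected counts with RSEM 1.2.3 and deposited these expected counts without normalization. The deposited signal is normalized TPM, which the authors made comparable across libraries with the median-by-ratio method. All tables list 21954 genes, and 26 names turned into dates were restored. The strand of the libraries is not given in the sources used here.

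Expected counts were rounded and tested over all genes with edgeR 4.0.16 (R 4.3.3, limma 3.58.1, DESeq2 1.42.0), using filterByExpr, TMM, glmQLFit and glmQLFTest on the 2 groups compared, as a substitute for the authors' EBSeq, which is not installed here. Calls needed an adjusted p under 0.05 (Benjamini-Hochberg) and group means, as normalized count plus 1, more than 2-fold apart, and tests over time used the adjusted p alone. CPM was computed with TMM within the digits and within the macrophages. The test was also run on simulated counts with 200 changed genes. How many such changes it misses in the digits is not reported here. Totals ran from 1468749 to 27904773 counts per library, and replicates differed by more than counting error, with a chi-square per degree of freedom of 3.13 to 438 over 55 pairs. Figures were drawn with matplotlib 3.10.9.

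The 10 genes, the 32 other pathway genes and the marker lists were chosen with earlier results of these data known. All 10 genes are named, and of the other pathway genes the called ones with the largest change, at most 3 a direction. Alternatives were RLE size factors, no filter, DESeq2, no fold threshold and each sample left out. For the digits they also included limma voom, 1 fit for all digits and the date period as a term. For the macrophages, which number their libraries 1 to 3, they included a replicate block. No pairing by number was seen. With the mean of each state taken off, same-numbered libraries correlated from -0.0863 to 0.0886 and others from -0.0657 to 0.126. With 3 libraries a state, this cannot exclude that same-numbered libraries share a culture.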

Additional observations from a re-analysis of the deposited data

How the results depend on the processing

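Of 331 recounts of the called genes among the 10, 312 stayed within 1.5 times the main count. In most comparisons the main count was 0, and a recount of 0 was taken as the same. This total therefore says little about how firm the digit calls are. Of 271 log2 fold changes of called genes, most of them from the macrophages, none reversed and 6 lost their call. All 6 were for Ptgs2 at 6 hours, among its 14 alternatives. A replicate block on the macrophage numbers left the counts at 6, 4 and 7 for M1 against M0, M2 against M0 and M1 against M2. Without the fold threshold the M2 count was 7 (adding Ptgs1, Ptger4 and Alox5). Fitting the 41 digits together gave 1 call at 6 hours (Ptges) and 1 at 14 days (Ptges), the latter also with the date period as a term. DESeq2 called 1 gene (Ptges) at 3 days and over the intermediate course. Limma voom with sample weights, on all 41 digits, called 1 gene at 3 hours (Ptgs2), 2 at 3 days, 2 at 14 days, 7 over the non-regenerative course, 1 for intermediate against non-regenerative digits of 24 hours (Ptgs2) and 2 for group by time (Ptgs1 and Ptges). With 1 digit left out, the counts ran from 1 to 2 at 6 hours, from 2 to 3 over the non-regenerative course (Ptgs1 lost in 9 of 29 fits, Ptgs2 and Ptges in 0), from 0 to 1 over the intermediate course (Ptges, without intermediate replicate 2 at 24 hours) and from 0 to 3 between the groups at 24 hours. The cause was not tested. Over all genes, 145 of 331 counts moved by more than 1.5 times. With 1 sample left out, the counts of all genes called ran from 108 to 605 at 6 hours (main 638), 804 to 1895 at 12 hours (1491), 817 to 1707 at 24 hours (1437), 802 to 2073 over the non-regenerative course (1100, and up to 9780 with limma voom) and 444 to 1388 over the intermediate course (869), and without the fold threshold 11094 genes were called between M1 and M0 (5961) and 9747 between M2 and M0 (2896). Across the same alternatives, samples left out included, the counts ran from 0 to 234 at 3 hours (0), 35 to 512 at 3 days (96), 0 to 266 at 7 days (7), 0 to 1110 at 14 days (0) and 4 to 498 at 21 days (62). In the intermediate digits they ran from 1 to 350 at 24 hours (2), 23 to 507 at 14 days (224) and 25 to 413 at 21 days (186), and against non-regenerative digits from 0 to 17 at 0 hours (0), 0 to 653 at 24 hours (0) and 0 to 314 at 21 days (89), with up to 2062 for group by time (0). In the digits Ptger2, Ptgds and Alox15 had at most 13, 3 and 9 counts in any library.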

Other observations

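The deposited normalized TPM and the CPM computed from the counts did not stand in a fixed ratio for some of the genes. Over digits with at least 10 counts, the ratio of normalized TPM to CPM ran from 0.354 to 0.479 for Ptgs2, but from 0.434 to 1.73 for Ptges (median 0.577), from 0.568 to 3.06 for Alox5 and from 1.35 to 5.10 for Alox5ap. It also moved for Ptgs1 (0.584 to 1.13) and Hpgd (0.95 to 1.65), which enter the Ptgs2 share and the Ptges to Hpgd ratio. Differences between digits in the levels of Ptges, Alox5, Alox5ap, Ptgs1 and Hpgd therefore depend on which of the deposited values is read. The tests rest on the counts.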
